A study of Homo sapiens with 414 samples.

Results

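The cells described here are the LNCaP cells that carried a mitotic expression program, compared between an siRNA against SULT2B1 (knockdown, labelled Sult2B1b) and a non-targeting siRNA (control). A cell was counted as a mitotic-program cell when at least 3 of 6 genes, MKI67, TOP2A, CCNB1, CDK1, UBE2C and TPX2, reached 10 CPM (reads per 1000000 reads in genes). By this gate 172 of the 401 cells of the series were members, 117 of 209 control cells and 55 of 192 knockdown cells. The other 229 cells serve as the comparison class. Members were chosen by the measured levels of these 6 genes, so those levels are described below without a test, and genes that follow the same program are partly fixed by the choice.

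LNCaP is an androgen-responsive epithelial line derived from a human prostate carcinoma. Its cells were treated with one of the siRNAs, which came from different suppliers (Dharmacon for control, IDT for knockdown), and harvested 48 h later. Dead-cell dyes and microscopy of a Fluidigm C1 plate, which isolates cells one by one in capture sites, left single live cells for cDNA amplification and Illumina sequencing. There were 3 batches, each holding both arms, and reads were summed over the mitotic-program cells of each arm and batch. Whether a batch was a culture of its own is not in the labels, so the error behind each p-value is the variation among these 3 batches and may be technical. In summed reads, fewer expressing cells and less RNA per cell cannot be told apart.

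Cells that approach division switch on a set of genes through the DREAM, B-MYB and FOXM1 regulators, which act at CHR elements in promoters. The set includes cyclin B1 (CCNB1) and its kinase CDK1, the ubiquitin-conjugating enzyme UBE2C that works with the anaphase-promoting complex, topoisomerase II alpha (TOP2A), the spindle assembly factor TPX2 and the proliferation antigen Ki-67 (MKI67). Type I and III interferons are secreted proteins that bind cell-surface receptors, activate JAK kinases and send a transcription complex that includes STAT2 and IRF9 to interferon-stimulated response elements (ISREs) in the promoters of antiviral genes. SULT2B1 encodes a cytosolic sulfotransferase whose substrates include cholesterol and other sterols.

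The promoters below show examples of both elements, the CHR in genes of the gate and the ISRE in interferon-induced genes that were higher in knockdown. They come from RefSeq (GRCh38.p14), 250 bases before to 50 after a gene's start, and are written 5′ to 3′ on the gene's strand. The ISRE core was searched as GAAANNGAAA on both strands (TTTCNNTTTC on the other), and capitals mark each match. It was found in 996 of 27305 promoters (3.65%) and in 21 of the 32 tested interferon-response genes with a promoter entry (65.6%), a list that was drawn up as interferon-responsive. The whole promoter of IFI6 (chr1:27672143-27672442, minus strand) is shown because IFI6 was the single gene that passed the test, and it held 3 matches. Windows of 30 bases around the first match follow for ISG15 (chr1:1013374-1013403), IFITM1 (chr11:313990-314019), IFIT1 (chr10:89392497-89392526) and IFIT3 (chr10:89327831-89327860), all on the plus strand.
IFI6: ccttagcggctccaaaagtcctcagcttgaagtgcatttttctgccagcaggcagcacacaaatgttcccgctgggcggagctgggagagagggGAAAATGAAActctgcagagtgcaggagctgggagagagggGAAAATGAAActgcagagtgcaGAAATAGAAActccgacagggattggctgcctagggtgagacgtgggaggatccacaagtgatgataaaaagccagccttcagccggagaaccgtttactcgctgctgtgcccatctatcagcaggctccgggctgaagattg
ISG15: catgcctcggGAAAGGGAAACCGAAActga
IFITM1: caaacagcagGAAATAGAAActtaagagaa
IFIT1: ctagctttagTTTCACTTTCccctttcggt
IFIT3: agccgttaggTTTCATTTTCctcctcccaa
The CHR core was searched as TTTGAA on both strands (TTCAAA on the other) and was present in 4212 of the 27305 promoters (15.4%). It was in 3 of the 4 gate genes that have an entry, and in 3 of the 32 interferon-response genes, IFIT3 among them. Of the 8 genes with the smallest p among those higher in knockdown, 6 have an entry. The ISRE core was in 3 of these 6 and the CHR core in 1, EGR1. Windows of 26 bases around the first match in MKI67 (chr10:128126455-128126480, minus strand), TOP2A (chr17:40418075-40418100, minus strand) and CDK1 (chr10:60778160-60778185, plus strand) are given, with the match in capitals.
MKI67: agcgccagaaTTTGAAtcttcgtttt
TOP2A: agtggtgcctTTTGAAgcctctctag
CDK1: gtataataaaTTTGAActgtgccaat
A match is a description of the letters only.

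The 172 mitotic-program cells had between 302926 and 2353816 reads in genes (median 1141852) and between 4974 and 10675 genes with a read (median 8978). Summed over cells, the control libraries held 40784728, 56900815 and 32075385 reads in batches 1, 2 and 3 and the knockdown libraries 21512084, 19425177 and 29306215, so the knockdown libraries were the shallower ones in every batch. The labelled cell type fitted its luminal markers: 12 luminal prostate genes summed to between 2774 and 5192 CPM in the 6 libraries. In contrast, 2 blood markers summed to at most 0.0746 CPM, with PTPRC at 0. Markers of some other types were low but not absent. The 3 endothelial markers summed to 1.13 to 2.92 CPM in control and 1.65 to 7.77 CPM in knockdown libraries, most of it VWF, with CDH5 at 0. The 3 basal markers summed to at most 3.39 CPM and the 3 neuroendocrine markers to at most 8.04 CPM. The 5 mesenchymal markers summed to 176 to 219 CPM in control and 49.8 to 87.2 in knockdown libraries, most of it FN1. Cells with over 20% of reads from mitochondrial genes made up 10.8, 9.80 and 6.90% of the control and 0, 0 and 5% of the knockdown mitotic-program cells, and their part in the results below was not tested beyond the fit without them.

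The gate took in 48.7, 77.3 and 43.3% of the control cells of batches 1, 2 and 3 (37 of 76, 51 of 66 and 29 of 67) and 25.8, 27.7 and 32.8% of the knockdown cells (17 of 66, 18 of 65 and 20 of 61). The means were 56.4 ± 18.3% (SD, n = 3) and 28.7 ± 3.63% (SD, n = 3), and every control batch lay above every knockdown batch. The program was also fuller in control cells. All 6 gate genes reached 10 CPM in 69 of the 117 control members and in 12 of the 55 knockdown members. Just inside the gate, 16 control and 16 knockdown cells had exactly 3 genes, and just outside it 25 control and 38 knockdown cells had exactly 2.

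**Figure D1:**
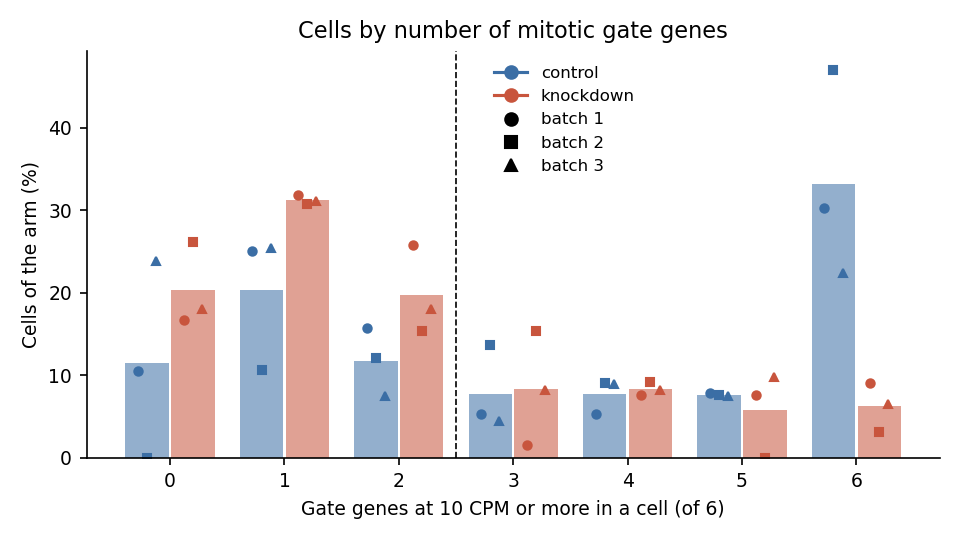
Percentage of the cells of each arm (vertical axis) by the number of gate genes at 10 CPM or more in the cell (horizontal axis). Bars are the mean of 3 batches, points are the batches, and the dashed line is the gate. The arms stand farthest apart at 6 genes, with 30.3, 47.0 and 22.4% of control cells against 9.09, 3.08 and 6.56% of knockdown cells.

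Of the 6 genes TOP2A differed most in its share of cells. It reached 10 CPM in 77.8% of the control and 30.9% of the knockdown members, while CCNB1 did so in 94.0 and 92.7% and CDK1 in 95.7 and 94.5%. In the summed reads TOP2A stood at 391, 275 and 275 CPM in control and at 188, 28.4 and 80.1 CPM in knockdown batches 1, 2 and 3. MKI67 stood at 219, 167 and 171 CPM in control and 166, 27.6 and 68.9 CPM in knockdown. CCNB1 overlapped between the arms, at 554, 676 and 429 CPM against 902, 408 and 402 CPM. UBE2C, at 180, 206 and 129 CPM against 250, 89.1 and 122 CPM, and TPX2, at 195, 223 and 159 CPM against 226, 85.2 and 70.5 CPM, overlapped too. Control members with exactly 3 gate genes had a median TOP2A level of 2.09 CPM and knockdown ones of 0 CPM, while CCNB1 and CDK1 had medians of 130 and 165 CPM in control and 87.9 and 130 CPM in knockdown.

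The gate did not separate mitosis from the rest of the dividing cycle. A cell was given an S phase program when at least 3 of MCM3, MCM5, MCM6, PCNA, TYMS and GINS2 (helicase subunits, the sliding clamp, a nucleotide synthesis enzyme and a helicase loading factor) reached 10 CPM. It was present in 100, 86.3 and 82.8% of the control members and 88.2, 61.1 and 80.0% of the knockdown members, means of 89.7 ± 9.11% and 76.4 ± 13.9% (SD, n = 3). The arms overlapped (two-sided exact permutation test, p = 0.3, where 3 against 3 batches allow no p below 0.1). Among the other cells the shares were 38.6 ± 25.1% and 28.8 ± 8.86% (SD, n = 3).

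The targeted gene was checked first. SULT2B1 (ENSG00000088002, chromosome 19, 48552075 to 48599425, plus strand) stood at 1.91, 1.72 and 1.92 CPM in the control and 0, 0.104 and 0 CPM in the knockdown mitotic-program cells. All 3 control libraries were above all 3 knockdown libraries, as the labels have it. The 236 control and 2 knockdown reads give a control level 64.4 times the knockdown level (95% counting interval 17.6 to 535, covering counting error only, since amplified reads are not independent molecules). Reads were found in 26 of 117 control and 1 of 55 knockdown cells. The edgeR test over all genes gave an adjusted p of 0.414, whereas DESeq2 gave 0.00755.

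Across the genome the mitotic-program libraries yielded 1 call. Of 16659 genes tested, IFI6 rose and no gene fell at an adjusted p under 0.05, which is 0.006% of the genes called higher and 0% called lower. Unadjusted p-values under 0.05 were found for 572 genes higher (3.43%) and 774 lower (4.65%), and DESeq2 called 269 higher (1.44%) and 365 lower (1.96%). With batch as a block, RIGI (log2 fold change 4.27, adjusted p = 0.0276) and IFIT3 (7.82, adjusted p = 0.0424) were called (0.012% of genes higher) and IFI6 was not (adjusted p = 0.297). The genes named below beyond IFI6 therefore did not pass the test and are given as values. Those values moved when only cells with all 6 gate genes were kept (69 control and 12 knockdown). Of 83 named genes, 18 took the other sign and a further 37 were smaller by over 1.5 times, while 10 were larger by that much. Only 6, 2 and 4 knockdown cells of batches 1, 2 and 3 stand behind the all-6 values given below. Whether the fuller program or the few cells moved them was not tested.

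IFI6 (chromosome 1, 27666061 to 27672218, minus strand) encodes an interferon-induced mitochondrial protein that counters apoptosis. It stood at 3.61, 4.64 and 5.16 CPM in the control and 242, 169 and 96.8 CPM in the knockdown libraries. Its log2 fold change was 5.25 (SE 0.411, adjusted p = 0.0493), higher in 3 of 3 batches. The difference was spread over the cells: 49 of 55 knockdown members had at least 10 CPM, against 15 of 117 control members, and the median cell held 78.8 against 1.48 CPM. The call was lost at a gate of 4 genes (adjusted p = 0.127), with all 6 gate genes (adjusted p = 0.598), with batch as a block, at a gate of 20 CPM (adjusted p = 0.113) and when any of 5 libraries was left out (adjusted p 0.111 to 0.647), while the log2 fold change stayed between 4.49 and 5.50. It was kept without knockdown batch 3 (adjusted p = 0.0104) and without the cells high in mitochondrial reads (adjusted p = 0.0464).

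Among the other higher genes with the smallest p were several of the interferon response. IFIT2, which binds viral RNA, stood at 7.41, 11.8 and 7.61 CPM in control and 1563, 1347 and 225 CPM in knockdown libraries (log2 fold change 6.87, SE 0.79, adjusted p = 0.139), but its log2 fold change was 0.44 in cells with all 6 gate genes. Among all knockdown members, a single cell held 56.4, 78.2 and 95.6% of the IFIT2 reads of batches 1, 2 and 3, and the median member had 6.25 CPM. IFIT2 and IFI6 therefore differed in how evenly cells carried them. IFITM1, a membrane protein that blocks virus entry, stood at 1.29, 1.71 and 2.26 against 91.0, 55.3 and 29.8 CPM (log2 fold change 5.06, SE 0.54, adjusted p = 0.117). The ubiquitin-like modifier ISG15 stood at 15.9, 34.5 and 33.0 against 258, 326 and 137 CPM (3.11, SE 0.426, adjusted p = 0.191). None of these 3 genes overlapped between the arms, which held for 6.67% of all genes in the higher direction. Their choice by small p favours this.

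**Figure D2:**
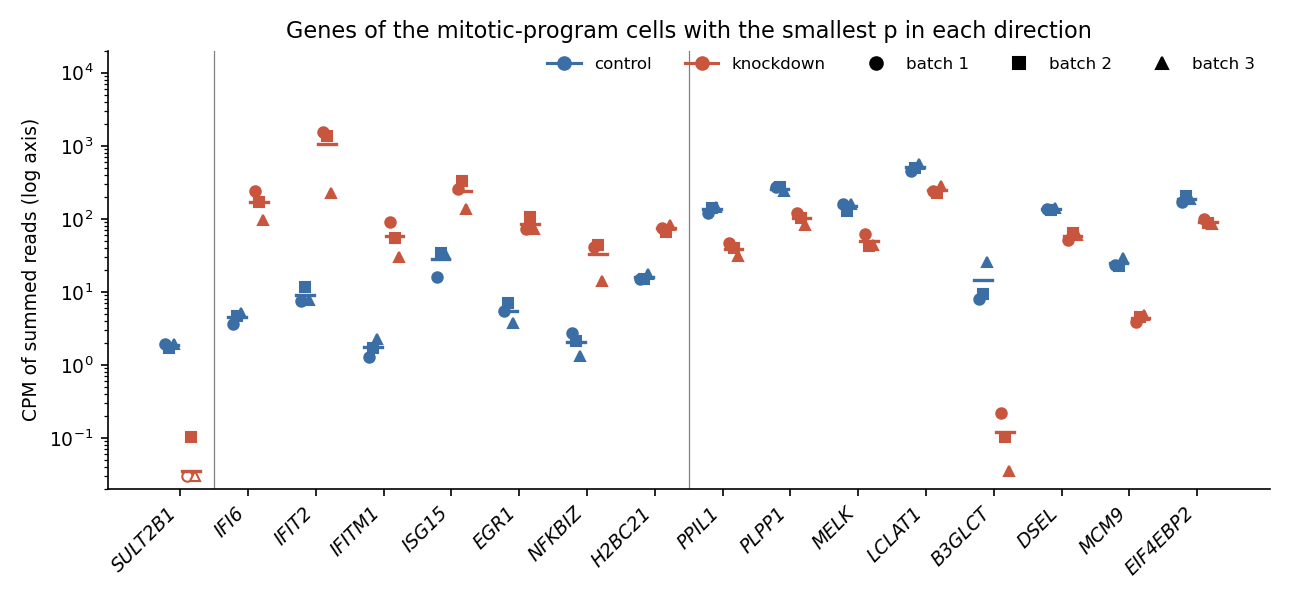
CPM of the summed mitotic-program reads (log axis) for SULT2B1, for 7 of the 8 genes with the smallest p among those higher in knockdown and for the 8 among those lower, in 3 control (blue) and 3 knockdown (red) libraries. Symbols are batches, short lines are means and open symbols at the bottom are libraries at 0. Every one of the 15 genes to the right of SULT2B1 keeps its 3 knockdown libraries on one side of its 3 control libraries. They were picked for small p and a shared direction in these same libraries, which favours such separation. Of all genes, 6.67% lay wholly above and 8.11% wholly below control. IFI6 lies at 3.61 to 5.16 CPM against 96.8 to 242 CPM.

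Of 45 interferon-response genes with a row in the table, 39 passed the filter on low counts. IFI6 was the only one called. An unadjusted p under 0.05 was found for 31, all higher (3.43% of all genes were), and 30 had knockdown libraries wholly above control libraries (6.67% of all genes did). Their median log2 fold change was 3.32, against 0.02 over all genes. The filter could also be passed through the knockdown arm alone, so this median describes the 39 genes and not the list. The 6 that did not pass were OAS2, MX2, SAMD9L, XAF1, GBP4 and CCL5. Among receptors of double-stranded RNA, RIGI stood at 13, 17.8 and 5.12 against 266, 355 and 90.8 CPM. IFIT1 stood at 5.74, 5.84 and 0 against 772, 552 and 143 CPM, and IFIT3 at 4.08, 4.26 and 0.189 against 890, 650 and 111 CPM. Among the knockdown libraries all 3 genes were lowest in batch 3, as was IFIT2. In cells with all 6 gate genes their log2 fold changes were 2.09 for RIGI, 3.90 for IFIT1 and 3.47 for IFIT3, against 4.30, 6.96 and 7.57 in all members. RSAD2 (viperin), IFI44L and CXCL11 had no control read in 117 cells, and their knockdown levels were at least 376-fold, 403-fold and 285-fold higher than 3 counts over the control arm. STAT2, a subunit of the interferon-activated transcription complex, gave 0.22 and TRIM22 gave -0.59, the one negative value of the list.

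A cell was counted as interferon-responding when at least 3 of IFIT1, IFIT2, IFIT3, RIGI and IFI6 reached 10 CPM. Among mitotic-program cells the share was 0, 1.96 and 0% in control and 58.8, 50 and 35% in knockdown (1 of 117 and 26 of 55 cells in all). The means were 0.654 ± 1.13% and 47.9 ± 12.0% (SD, n = 3), without overlap (two-sided exact permutation test, p = 0.1, the smallest 3 against 3 allow). In the other knockdown cells the share was 71.4, 63.8 and 73.2% (mean 69.5 ± 4.97%, SD, n = 3), and in other control cells 0 of 92. Within a batch the mitotic-program cells were lower by 12.6, 13.8 and 38.2 percentage points, in 3 of 3 batches (exact permutation within batches, p = 0.25, the smallest it allows). Thinning each cell to 200000 reads gave 55.6 ± 18.4% and 75.6 ± 4.92% (SD, n = 3). The gap was widest in batch 3.

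Across the number of gate genes, the knockdown share with a response was 69.2, 68.3 and 71.1% at 0, 1 and 2 genes (39, 60 and 38 cells). It was 50, 56.3, 27.3 and 50% at 3, 4, 5 and 6 genes, with only 16, 16, 11 and 12 cells. Exact 95% intervals at 5 genes ran from 6.02 to 61.0% and at 2 genes from 54.1 to 84.6%, which overlap. They treat the pooled cells as independent and leave out the variation among batches. The knockdown cells at 5 genes came as 5, 0 and 6 from batches 1, 2 and 3, so gate count and batch are mixed. A complete program and the response did occur in the same cell, in 6 of the 12 knockdown cells with all 6 gate genes.

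**Figure D3:**
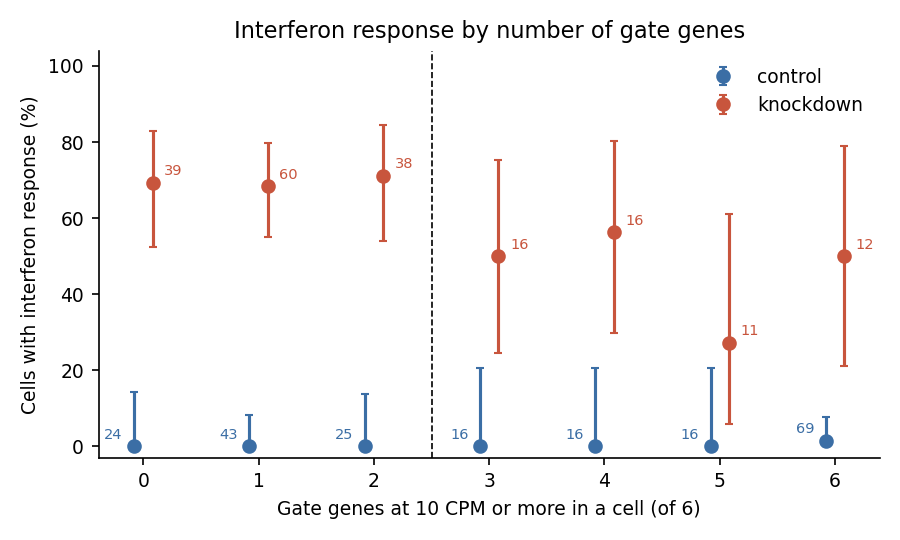
Percentage of cells with an interferon response (vertical axis) by the number of gate genes at 10 CPM or more (horizontal axis), pooled over batches, with exact 95% binomial intervals and the number of cells beside each point. The intervals treat cells as independent and leave out the variation among batches. The dashed line is the gate. Knockdown points lie at 68.3 to 71.1% left of the gate and at 27.3 to 56.3% right of it, while control points stay at 0 to 1.45%.

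The genes of the interferons themselves were seldom seen in mitotic-program cells. None of IFNB1, IFNL1, IFNL2 and IFNL3 passed the filter there. IFNB1, the type I interferon that cells make on sensing viral RNA, had 0 reads in the 117 control members and reached 10 CPM in 2 of 55 knockdown members, the higher at 197 CPM. In other knockdown cells it did so in 7 of 137, with a highest cell of 3799 CPM. The summed level was 0.089, 8.67 and 0.976 CPM in mitotic-program and 35.9, 24.1 and 42.0 CPM in other knockdown cells, without overlap. IFNL1, a type III interferon, reached 10 CPM in 3 of 55 and 14 of 137 knockdown cells, with highest cells of 25.5 and 4992 CPM. In control cells IFNL1 did so in 1 of 117 members, at 14.9 CPM, and in 0 of 92 other cells. No mitotic-program cell reached 10 CPM of IFNL2 or IFNL3, which allows a share of up to 5.45% of the 55 knockdown members. IFNL2 reached 10 CPM in 3, 1 and 1 and IFNL3 in 2, 2 and 2 other knockdown cells of batches 1, 2 and 3. Highest cells are read from 55 against 137 cells, and the difference between the classes was not tested on these few cells.

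Chemokines that interferon and NF-kB induce followed the same order. CCL5 reached 10 CPM in 0 of 55 mitotic-program and 11 of 137 other knockdown cells. CXCL10 did so in 3 of 55 and 20 of 137 cells, with highest cells of 1232 and 40342 CPM. In control cells CXCL10 did so in 2 of 117 members, the highest at 116 CPM, and in 0 of 92 other cells. Its summed level was 89.8, 13.4 and 22.8 CPM in mitotic-program and 756, 188 and 1641 CPM in other knockdown cells, so each mitotic-program library was below its own batch's other cells. A read of CCL5 was found in 15 of the 55 mitotic-program knockdown cells, the highest at 4.44 CPM.

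**Figure D4:**
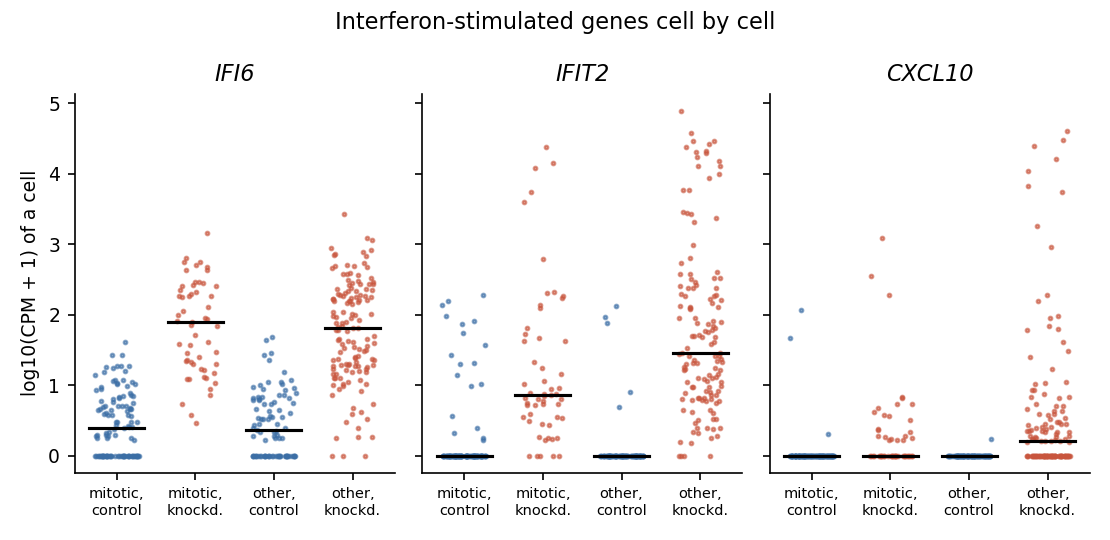
Level of 3 interferon-stimulated genes in each cell, as log10(CPM + 1) (vertical axis), for mitotic-program and other cells of both arms (horizontal axis). Each dot is a cell and black lines are medians. IFI6 has nearly the same median in both knockdown classes (78.8 and 63.5 CPM), whereas the median of IFIT2 is 6.25 CPM in mitotic-program and 27.8 CPM in other knockdown cells, and the highest CXCL10 cells lie among the other cells.

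Of the TNF and NF-kB response list, 17 genes were tested and none was called. In 4 the unadjusted p was under 0.05, all higher (3.43% of all genes were), and 16 lay above 0, with a median of 1.04. BIRC3, an inhibitor of cell death recruited to TNF receptors, stood at 9.50, 8.76 and 1.67 CPM in control and 107, 201 and 130 CPM in knockdown libraries (log2 fold change 4.45, SE 0.671, adjusted p = 0.191), and gave 1.57 in cells with all 6 gate genes. NFKBIZ, an atypical IkB protein that works in the nucleus, stood at 2.76, 2.13 and 1.32 against 40.9, 43.8 and 14.2 CPM (3.99, adjusted p = 0.191), though 1 cell held 84.7, 60.7 and 41.2% of its knockdown reads. The feedback inhibitor NFKBIA (0.83, adjusted p = 0.469) and the subunit RELA (1.22, adjusted p = 0.536) were also above control in all 3 batches. EGR1, an immediate early transcription factor outside this list, stood at 5.42, 7.09 and 3.71 against 72.8, 106 and 71.8 CPM (3.95, SE 0.366, adjusted p = 0.0793). In other cells EGR1 overlapped between the arms, at 108, 0 and 141 against 50.3, 284 and 177 CPM. The control value of 0 CPM rests on the 15 other cells of batch 2. EGR1 reached 10 CPM in 23 of 55 knockdown and 7 of 117 control members.

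Of 25 p53 targets tested, none was called and 23 lay above 0 (median 0.74). In 11 the unadjusted p was under 0.05, all higher, against 3.43% of all genes. CDKN1A, which encodes p21 and halts the cell cycle, stood at 59.9, 33.3 and 35.1 against 109, 100 and 108 CPM (log2 fold change 1.30, adjusted p = 0.335). PMAIP1 (NOXA, a BH3-only killer protein) stood at 79.2, 33.9 and 42.5 against 221, 123 and 138 CPM (1.63, adjusted p = 0.368). BTG2, an antiproliferative gene, gave 1.06 (adjusted p = 0.446). In cells with all 6 gate genes CDKN1A took the other sign (-0.26), and PMAIP1 gave 1.06 and BTG2 0.39. Both CDKN1A and PMAIP1 had all knockdown libraries above all control libraries, as had 6.67% of all genes. Of 20 death receptor genes, none was called and 3 were higher at an unadjusted p under 0.05, against 3.43% of all genes (median 0.46). FAS, the receptor of FAS ligand, stood at 35.5, 28.1 and 29.6 against 60.8, 73.8 and 106 CPM (1.37, adjusted p = 0.316). CASP8, the initiator caspase downstream of FAS and TNF receptors, gave 0.86 (adjusted p = 0.489), and the TRAIL receptor TNFRSF10B gave 0.92 (adjusted p = 0.684), with its arms overlapping. FAS (-0.75) and CASP8 (-0.037) took the other sign in cells with all 6 gate genes.

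**Figure D5:**
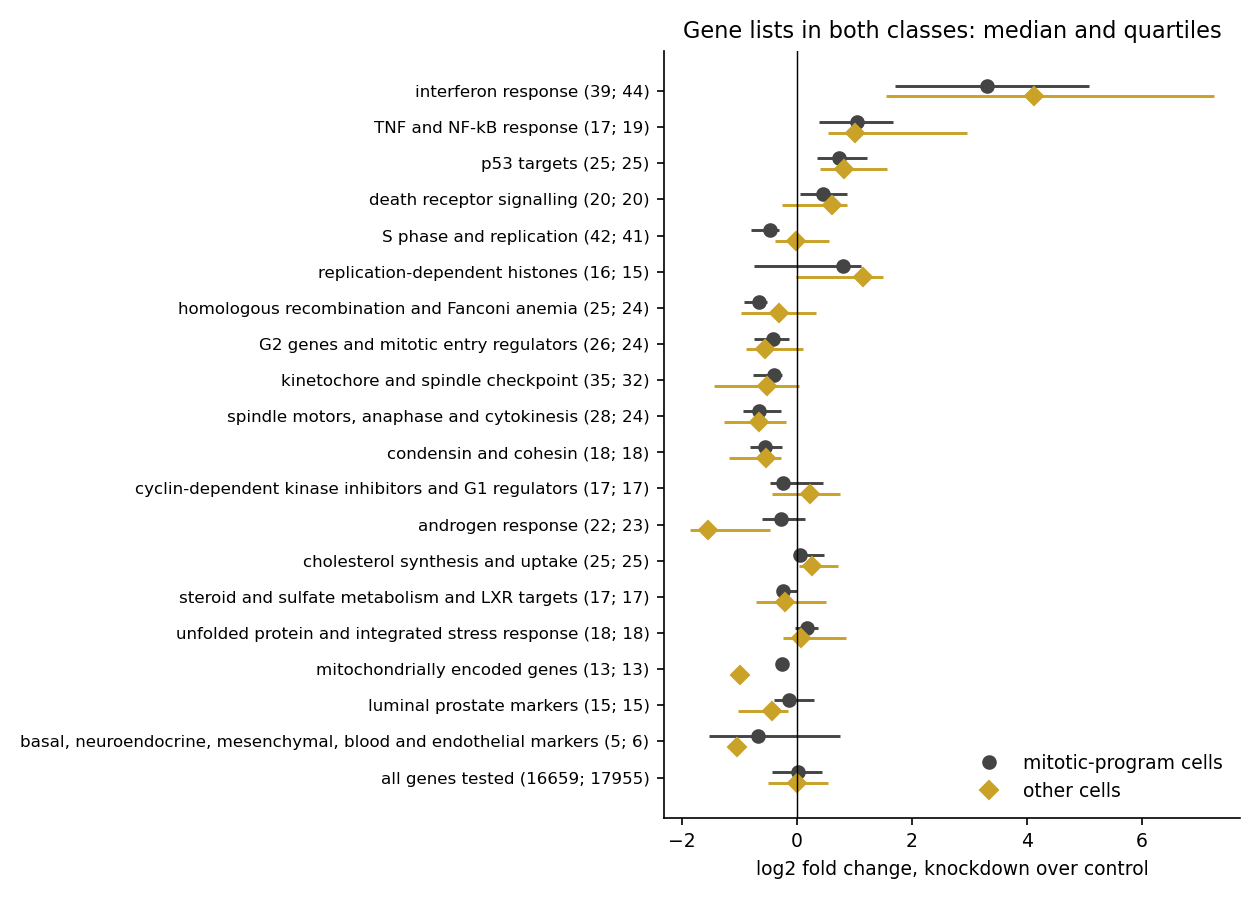
Median (symbols) and quartiles (lines) of the log2 fold changes, knockdown over control, of each gene list's tested members in mitotic-program cells (circles) and other cells (diamonds), with the number of genes tested in each class in brackets. The interferon response has medians of 3.32 and 4.13. The interferon genes, not drawn because none was tested in mitotic-program cells, had a median of 12.4 over 5 genes in other cells. IFNB1, IFNL1, IFNL2 and IFNL3 had no read in the 92 other control cells, so the size of that median has no measured control level behind it. Androgen response genes have a median of -0.27 in mitotic-program and -1.54 in other cells.

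None of the 8 genes with the smallest p among lower genes passed the test (adjusted p 0.169 to 0.191). PPIL1, a cyclophilin of the spliceosome, stood at 121, 141 and 146 CPM in control and 46.4, 39.8 and 31.1 CPM in knockdown libraries (log2 fold change -1.80, SE 0.221). PLPP1, a lipid phosphate phosphatase, stood at 274, 268 and 237 against 119, 102 and 82.2 CPM (-1.36, SE 0.181). In other cells both were called lower (adjusted p = 0.0141 and 0.00794). The acyltransferase LCLAT1 stood at 457, 499 and 559 against 237, 229 and 277 CPM (-1.03). EIF4EBP2, which holds back cap-dependent translation, stood at 171, 204 and 189 against 98.2, 86.6 and 84.8 CPM (-1.07). DSEL, an epimerase-like protein of dermatan sulfate synthesis, stood at 136, 131 and 142 against 50.8, 63.5 and 59.3 CPM (-1.24). None of these 5 genes overlapped between the arms, which held for 8.11% of all genes in the lower direction. In cells with all 6 gate genes PPIL1 gave -0.38, LCLAT1 -0.55 and EIF4EBP2 -0.61, and DSEL took the other sign (0.60).

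MCM9 and B3GLCT rested on few cells. MCM9, a helicase of the MCM family that acts in homologous recombination, stood at 23.5, 22.5 and 29 against 3.82, 4.54 and 4.88 CPM (log2 fold change -2.50, SE 0.373), and 38 of 117 control and 8 of 55 knockdown members reached 10 CPM. B3GLCT, a glucosyltransferase of the secretory pathway, stood at 8.06, 9.43 and 25.7 against 0.222, 0.104 and 0.0348 CPM (-6.88, SE 0.974), with 15 of 117 and 0 of 55 members at 10 CPM. The limit that 0 of 55 cells allows is 5.45%. In other cells B3GLCT overlapped between the arms, at 1.11, 3.04 and 1.82 against 0.277, 9.44 and 9.76 CPM. At a gate of 2 genes the log2 fold changes were -2.72 for B3GLCT and -1.53 for MCM9, and with equal weight per cell B3GLCT gave -3.56.

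Genes of DNA replication and repair lay below control as groups. Of 42 S phase genes 37 were below 0 (median -0.48) and none was called. At an unadjusted p under 0.05, 8 were lower (4.65% of all genes were) and 1 was higher (3.43% of all genes were). RRM2, the ribonucleotide reductase subunit that limits deoxynucleotide supply, stood at 322, 310 and 359 against 171, 108 and 148 CPM (log2 fold change -1.21, adjusted p = 0.216). The histone mRNA binding protein SLBP stood at 81.9, 54.5 and 67.5 against 27.2, 37.4 and 15.5 CPM (-1.35, adjusted p = 0.402). Both had all knockdown libraries below all control libraries, as had 8.11% of all genes. The checkpoint mediator CLSPN gave -0.97 (adjusted p = 0.457). Among cells with all 6 gate genes RRM2 gave -0.30, SLBP -0.47 and CLSPN -0.16, and BRCA2 of the next group took the other sign (0.27). Of 25 genes of homologous recombination and the Fanconi anemia pathway, which repair broken or crosslinked DNA, 24 were below 0 (median -0.67). At an unadjusted p under 0.05, 7 were lower, against 4.65% of all genes. BRCA2, a tumour suppressor of this repair, stood at 147, 122 and 154 against 83.2, 63.0 and 76.7 CPM (-0.92, adjusted p = 0.316). FANCM (-1.39), FANCD2 (-1.03) and BARD1 (-0.69) did not overlap between the arms either, with adjusted p of 0.414 to 0.46. Wholly below control lay 8.11% of all genes.

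Mitotic genes outside the gate were lower too, but they are tied to the choice of cells. The lists of G2 genes, kinetochore and spindle checkpoint, spindle motors and cytokinesis, and condensin and cohesin had 23 of 26, 33 of 35, 26 of 28 and 15 of 18 members below 0, with medians of -0.42, -0.40, -0.65 and -0.56 and no call. MELK, a kinase of dividing cells, stood at 160, 130 and 158 against 61.1, 42.6 and 44.3 CPM (log2 fold change -1.60, SE 0.217, adjusted p = 0.191), and gave -0.40 in cells with all 6 gate genes. NCAPG2, a condensin II subunit, stood at 115, 79.1 and 93.2 against 40.9, 23.0 and 14.5 CPM (-1.88, adjusted p = 0.338). ESPL1 (separase, which opens cohesin) stood at 14.8, 12.5 and 24.4 against 3.25, 0.470 and 2.37 CPM (-3.08, adjusted p = 0.368). NCAPG2 gave -0.73 and ESPL1 -1.94 once all 6 gate genes were required. Others were ZWINT (-0.81), SGO2 (-1.10), KNTC1 (-0.70) and CENPI (-0.90) of the kinetochore, NUSAP1 (-0.84), PLK4 (-0.90) and KIF18B (-0.90) of the spindle, STAG2 (-0.86), NCAPD3 (-0.64) and NCAPD2 (-0.69) of cohesin and condensin, and MASTL (-1.07), CKAP2L (-1.53) and CKS1B (-0.92) of mitotic entry. Batch 1 differed from the other batches: the within-batch medians of the spindle list were 0.007, -1.47 and -0.88 on the log2(CPM + 1) scale.

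The medians of these groups were also taken in fuller cells. Restricting both arms to cells with all 6 gate genes (69 control and 12 knockdown cells) moved the medians to 0.34 for G2 genes, 0.20 for the kinetochore list, 0.18 for the spindle list, -0.02 for condensin and cohesin and 0.01 for S phase genes. The homologous recombination list moved from -0.67 to -0.22, and the interferon response from 3.32 to 2.82. No gene was called in that comparison by edgeR, and 649 of 13340 had an unadjusted p under 0.05.

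Replication-dependent histones were split. H4C3 stood at 1957, 1147 and 1632 against 801, 703 and 338 CPM (log2 fold change -1.36, adjusted p = 0.368), whereas H2BC21 stood at 15.1, 15.1 and 17.4 against 76.0, 65.0 and 81.2 CPM (2.22, SE 0.247, adjusted p = 0.117). H2AC6 (1.63) and H2BC5 (1.13) were above control, with adjusted p of 0.483 and 0.469. With all 6 gate genes required, H4C3 gave -0.09 and H2BC21 1.11, and H2AC6 (-1.77) and H2BC5 (-1.48) took the other sign. Of 16 tested, 5 had an unadjusted p under 0.05 in the higher and 1 in the lower direction, against 3.43 and 4.65% of all genes. Histone genes share sequence, so reads can be split between them.

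Of 22 androgen-response genes none was called by edgeR, and the median was -0.27. An unadjusted p under 0.05 was found for 5, all lower (4.65% of all genes were). Wholly below control lay 6 (8.11% of all genes), and DESeq2 called 4 lower (1.96% of all genes). KLK3 (prostate-specific antigen) stood at 750, 584 and 657 against 360, 430 and 285 CPM (log2 fold change -0.89, SE 0.182, adjusted p = 0.316). KLK2 gave -0.73, HERC3 -1.57 and HPGD -4.44, with adjusted p of 0.284 to 0.501. The luminal keratins KRT8 and KRT18 went the other way, at 39.6, 48.1 and 32.6 against 71.2, 86.7 and 78.2 CPM and at 117, 133 and 136 against 194, 217 and 186 CPM (0.97 and 0.63, adjusted p = 0.368 for both), KRT18 giving 0.14 in cells with all 6 gate genes. FN1 (fibronectin) stood at 207, 170 and 174 against 75.2, 79.9 and 35.3 CPM (-1.53, adjusted p = 0.316). Cholesterol synthesis genes, the pathway nearest to the substrate of SULT2B1, had a median of 0.05 over 25 genes. Only TM7SF2 had an unadjusted p under 0.05 (0.84, adjusted p = 0.615), where 3.43% of all genes were higher. FDFT1 (0.47), DHCR7 (0.52) and NSDHL (0.50) overlapped between the arms (adjusted p 0.753 to 0.819). The 18 genes of the unfolded protein and integrated stress response had a median of 0.18, and the 13 mitochondrially encoded genes a median of -0.26, all 13 below 0 with none called.

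Whether an effect of the knockdown differed between the classes was tested in 1 fit of 12 libraries, mitotic-program and other cells of each arm and batch. The other control cells numbered 39, 15 and 38 in batches 1, 2 and 3, so batch 2 rests on few. Of 20304 genes none passed an adjusted p of 0.05 (0% called), 1077 had an unadjusted p under 0.05, 328 of them above 0 (1.62%) and 749 below (3.69%), and DESeq2 called 358. The median difference over all genes was -0.23 on the log2 scale, so single differences are to be read against that shift. In the other cells by themselves, 43 of 17955 genes rose (0.239%) and 51 fell (0.284%), 17 of the higher ones from the interferon list, and with batch as a block 5 rose and none fell. Of 44 interferon-response genes tested there, 36 were higher at an unadjusted p under 0.05 (6.02% of all genes). A gene called there and not in mitotic-program cells is not shown to differ.

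The 8 genes with the smallest p for the difference all had an adjusted p of 0.822. PFKM, a muscle-type phosphofructokinase of glycolysis, stood at 51.2, 49.6 and 40.6 against 77.7, 89.4 and 103 CPM in mitotic-program cells and at 110, 110 and 75.3 against 59.9, 56.9 and 64.4 CPM in other cells. The direction was opposite in the classes, without overlap of arms in either (difference 1.57, SE 0.239). In mitotic-program cells the log2 fold change of PFKM was 0.93, and 0.058 with all 6 gate genes. PPP1R2, an inhibitor of protein phosphatase 1, stood at 73.7, 63.0 and 58.6 against 63.3, 42.3 and 75.4 CPM, overlapping, and at 145, 105 and 110 against 37.7, 24.8 and 41.9 CPM in other cells (difference 1.62, SE 0.237). PARP14, an interferon-induced ADP-ribosyltransferase, overlapped between the arms in mitotic-program cells, where its sign turned at stricter gates (-1.67 with all 6 gate genes), at 15.7, 27.6 and 6.73 against 19.3, 22.0 and 36.5 CPM. In other cells it stood at 4.97, 4.74 and 1.61 against 30.1, 54.7 and 128 CPM (difference -3.39, SE 0.483). PMAIP1 (difference -1.98, SE 0.299) was above control in both classes, at 35.5, 11.3 and 15.8 against 316, 255 and 146 CPM in other cells.

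The other four of the 8 rested on a class near 0 in one arm. IFIT3 was at 0.0308, 0 and 0 CPM in other control cells, against 4.08, 4.26 and 0.189 CPM in mitotic-program control cells, so its difference (-9.09, SE 1.4) takes in a higher control level as well as a lower knockdown level. The long noncoding RNA gene HELLPAR stood at 53.6, 75.1 and 30.4 against 47.1, 3.5 and 5.78 CPM in mitotic-program and at most 17.1 CPM in other cells (difference -4.40, SE 0.590). TM4SF18 and AC087392.3 were at or near 0 in other control cells. Without knockdown batch 3, IFIT3 alone passed (edgeR adjusted p = 0.013).

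Of 23 androgen-response genes, 7 had an unadjusted p under 0.05 for a difference above 0 and none below, against 1.62% of all genes above. In other cells the list had a median of -1.54, with 17 of 23 genes lower at an unadjusted p under 0.05 (5.43% of all genes) and 4 called. KLK3 stood at 729, 826 and 1266 against 190, 331 and 213 CPM there (difference 1.00, SE 0.289), and the androgen-driven protease TMPRSS2 at 365, 201 and 273 against 43.5, 63.9 and 90.7 CPM. In mitotic-program cells TMPRSS2 stood at 87.9, 75 and 97.8 against 30.2, 79.8 and 74.5 CPM, overlapping, with control levels already below those of other control cells (difference 1.44, SE 0.293). FOLH1 (prostate-specific membrane antigen) held 704, 736 and 784 CPM in control and 690, 755 and 784 CPM in knockdown mitotic-program cells (log2 fold change 0.00, SE 0.112). Median mitochondrial shares per cell also differed between the classes, 11.1, 7.95 and 6.51% in other control cells against 5.95, 6.01 and 5.60% in mitotic-program control cells, and their part in it was not tested. KLK2, KLK3, TMPRSS2, FOLH1, ABCC4 and ELL2 were 6 of the 7, and none had an adjusted p below 0.904.

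Of 44 interferon-response genes in that fit, 8 had an unadjusted p under 0.05 below 0 and 2 above, against 3.69 and 1.62% of all genes. DDX60, a helicase cofactor of RNA sensing, stood at 28.4, 10.2 and 13.5 against 61.5, 116 and 50.4 CPM in mitotic-program and at 4.29, 2.92 and 6.27 against 175, 114 and 99.4 CPM in other cells (difference -2.74, SE 0.572). HERC6 was 1 of the 2 above 0, at 1.77, 4.52 and 2.36 against 53.3, 26.1 and 25.0 CPM in mitotic-program cells and 37.8, 22.0 and 15.3 against 43.2, 40.4 and 49.4 CPM in other cells (difference 2.62, SE 0.692). The difference of IFI6 was smaller than its error (-0.31, SE 0.627), with 164 ± 58.3 CPM (SD, n = 3) in other and 170 ± 72.8 CPM (SD, n = 3) in mitotic-program knockdown cells.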

How the data were processed

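The deposited values are counts of reads, one whole number for each gene in each cell, without normalization or molecular identifiers. The submitters' processing notes list the build GRCh38.p3 and, as tools, TopHat2 2.1.0, edgeR 3.2.2, HTSeq 0.6.1 and FastQC 0.11.3. Step order, annotation release and strandedness were not given in the sources used here, so reads of overlapping and antisense genes cannot be told apart. Capture sites with other than 1 live cell had been excluded by eye, per the labels' protocols, and no doublet caller was run. Of 36135 gene rows 987 could not be named, and coordinates are those of GENCODE 29 (GRCh38). The 401 columns labelled as single cells were used, and 4 columns of values were not. No pair of cells had identical counts. In all, 13 listed genes were not analysed here, and single values of some members of the lists are not reported here.

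Reads were summed over the mitotic-program cells of each arm and batch and tested with edgeR 4.0.16 (quasi-likelihood, robust, TMM, filterByExpr with a minimum count of 10, no covariates, Benjamini-Hochberg over all genes tested; limma 3.58.1, R 4.3.3). The common dispersion was 0.533. CPM of libraries are TMM-scaled. Positive log2 values are higher in knockdown. For a control arm without reads, 3 counts over that arm (0.0232 CPM) served as its upper limit. DESeq2 1.42.0, a replicate block, no filter, other gates, equal weights per cell, thinning and left-out libraries were alternatives. The labels' word Batch pairs the libraries across arms; same-numbered libraries' deviations correlated by 0.0564, 0.0229 and 0.0103. Shares per batch, other than the share of cells in the gate, were compared by two-sided exact permutation tests. Shares have exact Clopper-Pearson intervals at 95%, which treat cells as independent and leave out the variation among batches. Of the fits, only the edgeR comparison of the arms was also run on simulated counts. Tables and plots used pandas 2.3.3, matplotlib 3.10.9, scipy 1.17.1 and numpy 2.4.6 under Python 3.11.15.

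The members, the 20 gene lists and the rules were chosen with earlier results of these data known. Named were SULT2B1, the 6 gate genes, the 12 largest called changes per direction with the same sign in 3 batches and a mean of 5 CPM (with fewer than 4, the 8 smallest p-values meeting both), up to 4 genes per list and the 8 smallest p-values for the difference between classes. RIGI, IFIT1, TMPRSS2, FOLH1, ABCC4, ELL2, DDX60, HERC6, the interferons and other genes named in counts were chosen after their values were seen.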

Additional observations from a re-analysis of the deposited data

How the results depend on the processing

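The number of genes higher and lower in knockdown, 1 and 0 as reported, was 269 and 365 with DESeq2, 13 and 5 without a filter on low counts, 14 and 9 at a gate of 2 genes, 11 and 5 with cells thinned to 200000 reads, and 5 and 0 with equal weight per cell. No gene was called in either direction by edgeR at a gate of 4 genes, with all 6 gate genes or at 20 CPM, where 1012, 649 and 1231 genes had an unadjusted p under 0.05. With batch as a replicate block, which pairs the libraries, 2 genes were higher and 0 lower. Leaving out 1 library gave 0 to 2 genes higher, the 2 (IFI6 and IFIT2) without knockdown batch 3, and 0 lower. Genes differing between the classes numbered 0 as reported, 358 with DESeq2 and 0 to 1 with a library left out. The share of cells in the gate, of interferon-responding cells and of cells with an S phase program kept the sign of their difference between the arms in every setting run, at -31.8 to -19.7, 40.6 to 55.9 and -20.3 to -5.56 percentage points. The arms came to overlap in the share of cells in the gate at a gate of 2 genes (50.7% in the lowest control and 51.5% in the highest knockdown batch). That share is set by the rule and was not tested. They also overlapped in the interferon-responding share with all 6 gate genes (knockdown 50, 0 and 75%, exact permutation p = 0.4). With all 6 gate genes, a restriction added after the data were seen, the log2 fold change took the other sign for DSEL (0.60), FAS (-0.75), CDKN1A (-0.26), CASP8 (-0.037), H2BC5 (-1.48), H2AC6 (-1.77), BRCA2 (0.27), KNTC1 (0.25), SGO2 (0.13), CENPI (0.22), NUSAP1 (0.23), PLK4 (0.20), KIF18B (0.50), NCAPD3 (0.75), NCAPD2 (0.14), CCND1 (-0.019), PARP14 (-1.67) and PPP1R2 (0.80). At a gate of 4 genes it did so for VWF (-0.21), PARP14 (-0.45) and PPP1R2 (0.093), at 2 genes for VWF (-0.35) and at 20 CPM for PARP14 (-0.18). With a library left out, values ran from -0.48 to 2.17 for STS, from -0.33 to 0.087 for PPP1R2, from -0.85 to 0.10 for TM4SF18 and from -5.34 to 0.28 for AC087392.3. The all-6 comparison holds 12 knockdown cells. The cause of these changes was not tested, and fewer cells or libraries stood behind these values. Depth limits single genes: 17 to 20 knockdown cells stand behind each library, and in several interferon genes 1 cell held most reads.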
